A study of Glycine max with 6 samples.

Results

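Compact shared loci with coinciding summits are places in the soybean genome where GLYMA.06G314400 and GLYMA.13G317000 each gave 1 peak in both of their replicates, and where the highest point of all 4 peaks fell at almost the same base. All peaks of the 4 deposited lists were pooled, and peaks that overlapped by at least 1 bp were merged into loci. A locus was kept if it held exactly 1 peak from each list, was under 1500 bp wide after merging, and had its 4 summits within 20 bp from the lowest to the highest. The members were thus chosen by measured values, namely the presence, width and summit position of peaks in these same lists. Of 70952 loci in all, 4901 (6.91%) met this rule. They were 14.4% of the 34119 loci with a peak in every list.

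The peaks came from chromatin immunoprecipitation with sequencing (ChIP-seq) of Glycine max cultivar Williams 82 embryos at early maturation, dissected from seeds of 6 to 7 mm. GLYMA.06G314400 was precipitated with 3 µg of an antibody to a peptide of its residues 302 to 316, in 2 biological replicates. GLYMA.13G317000 was precipitated with 2 µg of an antibody to a peptide of its residues 1 to 15, also in 2 biological replicates. The other 2 samples were input, meaning sheared chromatin that was set aside before precipitation, and they have no peak list here. All groups shared the cultivar, stage, 1% formaldehyde fixation and shearing to 100 to 500 bp, and no plant without either protein was among them. The labels do not say whether the replicates came from separate plants or harvests.

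In ChIP-seq, DNA fragments crosslinked to a protein pile up around the place where the protein was held. The summit is the base with the highest pile in a peak, and it is the closest estimate of that place that a peak list gives. Fragments are longer than a binding site and differ in where they end, so the summits of repeated experiments scatter around a shared site. A summit common to the antibodies of different proteins marks a place where nearby DNA was recovered with both antibodies. If both proteins were held there, the assay cannot tell the same cell from different cells of the embryo. Without a plant that lacks either protein, it also cannot show what the antibodies recover when their protein is absent. Early maturation is the stage at which the embryo begins to fill with storage protein and oil.

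The lists held 60812 and 53281 peaks for replicates 1 and 2 of GLYMA.06G314400, and 58036 and 41859 for GLYMA.13G317000. How many reads lie behind them is not stated here, so a missing peak does not show missing binding, and no interval below covers more than counting error. Each peak carries a fold enrichment, which is the authors' ratio of the pile at the summit to the local background. It is used here as a percentile, the share of peaks in the same list with a lower value, because the lists differ in length and in range. The rule used peak presence, width and summit position from all 4 lists, so no replicate is left to test it on. Fold enrichments come from the same lists. All values below are therefore descriptions. The 1 test made, of peak width over samples, also uses a value that the rule limits.

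The rule took the loci from the tight end of a continuous distribution. Exactly 1 peak in each list was found at 31333 loci, and 31153 of these were under 1500 bp wide, called compact below. Of the compact loci, 4901 (15.7%) had summits within 20 bp, and the other 26252 had displaced summits, with a median span of 48 bp and a highest span of 927 bp. There was no gap at the limit. Spans of 19 and 20 bp were found at 486 and 493 loci, and spans of 21 and 22 bp at 512 and 561 loci. The median over these loci of the lowest of the 4 percentiles was 69.97 and 70.3 just inside the limit, and 67.7 and 69.8 just outside it. The width limit removed few loci, since 38 loci of 1500 bp or more also had summits within 20 bp.

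**Figure D1:**
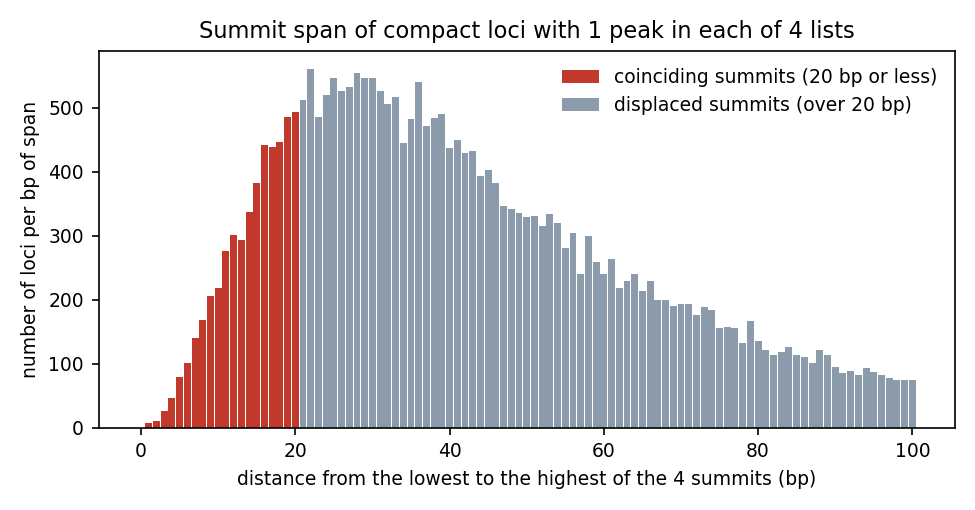
Number of compact loci (vertical axis) at each summit span in bp (horizontal axis, shown up to 100 bp), with coinciding summits in red and displaced summits in grey. The counts pass from 493 loci at 20 bp to 512 at 21 bp with no break.

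Within the members, tight agreement was less common than loose agreement. A span of 16 to 20 bp was found at 2307 members (47.1%), one of 11 to 15 bp at 1589 (32.4%), one of 6 to 10 bp at 835 (17.0%) and one of at most 5 bp at 170 (3.47%). No member had all 4 summits on the same base. The smallest span was 1 bp, at 7 members. The tightest class was also the one with the highest peaks. Its median lowest percentile was 80.6, against 75.8, 72.8 and 70.5 in the classes of 6 to 10, 11 to 15 and 16 to 20 bp. At spans of at most 5 bp, the replicates of GLYMA.06G314400 had median fold enrichments of 17.7 and 20.5, and those of GLYMA.13G317000 had 13.6 and 9.78. At spans of 16 to 20 bp the medians were 14.6 and 15.9 for GLYMA.06G314400, against 11.4 and 8.05 for GLYMA.13G317000.

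Summit distances within the members are set by the rule, which holds every pair of summits to 20 bp or less, and are given as a description. The median distance was 7 bp for the replicates of GLYMA.06G314400, 7 bp for those of GLYMA.13G317000, and 7 bp for each of the 4 pairs of lists from different proteins. At displaced loci the median was 21 bp within GLYMA.06G314400, 25 bp within GLYMA.13G317000, and 23 to 26 bp between the proteins. Distances of at most 5 bp at members made up 42.4% between the replicates of GLYMA.06G314400, 39.8% between those of GLYMA.13G317000, and 39.5% to 40.1% between the proteins. The rule did not fix which summit came first. In replicate 1, the GLYMA.06G314400 summit had the higher coordinate at 2298 members and the lower one at 2363. In replicate 2 these counts were 2335 and 2330. Each list lay alone at an end of the span at 44.2% to 47.5% of members.

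Peak widths at the members differed between lists, within the limit on merged width that the rule sets. The GLYMA.06G314400 peaks had median widths of 742 bp in replicate 1 and 589 bp in replicate 2, and the GLYMA.13G317000 peaks had 554 bp and 425 bp. Every replicate 1 list was wider than the replicate 2 list of its protein, and the widths of both GLYMA.06G314400 lists lay above both of GLYMA.13G317000. The mean of the list medians was 665.5 ± 108 bp for GLYMA.06G314400 and 489.5 ± 91.2 bp for GLYMA.13G317000 (SD, n = 2 each). For the difference of 176 bp, an exact permutation test over samples gave the lowest value this design can give (two-sided p = 0.333 with n = 2 lists for each protein), so it cannot decide whether the proteins differ. The same order held over the whole lists, with medians of 512 and 436 bp for GLYMA.06G314400 and 422 and 373 bp for GLYMA.13G317000, so it is not particular to the members. The part of read depth in it was not tested. The GLYMA.06G314400 replicate 1 peak was the widest at 4390 members (89.6%), against 83.3% of displaced loci, and the GLYMA.13G317000 replicate 2 peak the narrowest at 4560 (93.0%), against 87.4%.

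The peaks overlapped in a common core. The stretch covered by all 4 peaks had a median of 420 bp (quartiles 345 and 522 bp), or a median of 59.0% of the merged width, and a lowest value of 167 bp. At displaced loci the core had a median of 360 bp and was absent at 45 loci; summits as close as those of the members leave little room for its absence. The summit lay near the middle of its peak. At members, its median distance from the midpoint was 29 bp in replicate 1 and 22.5 bp in replicate 2 for GLYMA.06G314400, and 23.5 and 17.5 bp for GLYMA.13G317000. At 1878 members (38.3%) the summit was on the same side of the midpoint in all 4 lists, against 30.0% of the loci with exactly 1 peak in each list. Placing the summits close together helps such agreement, so this share was partly set by the rule. It also differed with strength, in 5 groups of compact loci by their lowest percentile. In the weakest group it was 31.5% at members and 19.9% at displaced loci, and in the strongest 43.4% and 42.0%.

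Single loci show this geometry. The member with the highest value of its lowest percentile was chr4:11188526-11189719. There GLYMA.06G314400 gave fold enrichments of 43.9 in replicate 1 and 67.5 in replicate 2, and GLYMA.13G317000 gave 41.9 and 41.5. All 4 peaks stood at percentile 99.9 of their lists or higher, and their summits spanned 9 bp. The GLYMA.06G314400 peaks were 1194 and 1074 bp wide, and the GLYMA.13G317000 peaks 887 and 844 bp. Positions are as in the deposited lists, whose genome build is not stated, and the genes and DNA sequence there were not analysed here.

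The next 5 strongest members were of nearly the same height. At chr8:40220372-40221384, GLYMA.06G314400 gave fold enrichments of 42.4 and 62.1, GLYMA.13G317000 gave 37.8 and 35.2, and the summits spanned 19 bp. At chr12:3978520-3979620 the values were 40.9 and 60.6 for GLYMA.06G314400, against 39.9 and 35.3 for GLYMA.13G317000. Its summits paired across both protein and replicate number: that of GLYMA.06G314400 replicate 2 fell on the same base as that of GLYMA.13G317000 replicate 1, and the remaining summits lay 14 and 13 bp from it. At chr5:31119225-31120311, GLYMA.06G314400 reached 46.3 and 62.5 and GLYMA.13G317000 reached 38.3 and 31.8, with a span of 11 bp. At chr4:4811592-4812612 the values were 40.7 and 59.1 for GLYMA.06G314400, against 38.4 and 36.0 for GLYMA.13G317000, and the span was 18 bp. The sixth, chr2:43822172-43823452, had 39.9 and 60.3 for GLYMA.06G314400, against 38.3 and 32.9 for GLYMA.13G317000, and a span of 19 bp. All 6 loci were over 1000 bp wide.

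Of the 7 members with a span of 1 bp, the 4 strongest reached from very high to moderately high peaks. At chr12:5408136-5409177, 3 summits fell on the same base and that of GLYMA.13G317000 replicate 2 on the next one. The fold enrichments there were 36.9 and 52.6 for GLYMA.06G314400, against 32.6 and 25.8 for GLYMA.13G317000. At chr9:33501374-33502492 it was the summit of GLYMA.06G314400 replicate 2 that lay 1 bp from the others. GLYMA.06G314400 gave 33.9 and 45.2 at this locus, and GLYMA.13G317000 gave 33.8 and 24.7. The loci chr6:38405853-38406658 and chr3:45241089-45242086 were lower. The first of these had 25.6 and 29.0 for GLYMA.06G314400, against 20.6 and 13.5 for GLYMA.13G317000. The second had 26.2 and 25.4 for GLYMA.06G314400, against 15.8 and 14.9 for GLYMA.13G317000.

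Coinciding summits also occurred at peaks of low fold enrichment. The 3 members whose highest percentile was lowest had widths of 383 to 536 bp. At chr5:876727-877171, GLYMA.06G314400 gave fold enrichments of 3.00 and 4.23 and GLYMA.13G317000 gave 2.86 and 3.15, at percentiles of at most 16.1. At chr8:8267449-8267831 the values were 3.41 and 3.64 for GLYMA.06G314400, against 3.41 and 3.80 for GLYMA.13G317000, and yet the summits spanned only 5 bp. At chr13:24532792-24533327, GLYMA.06G314400 gave 3.73 and 3.93, and GLYMA.13G317000 gave 3.26 and 2.05. All of these peaks had a deposited −log10 q above 6, well inside the limit of a q near 0.01 at which the lists end. At chr13:24532792-24533327 it was 42.5 and 28.0 for GLYMA.06G314400, and 26.5 and 6.66 for GLYMA.13G317000.

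**Figure D2:**
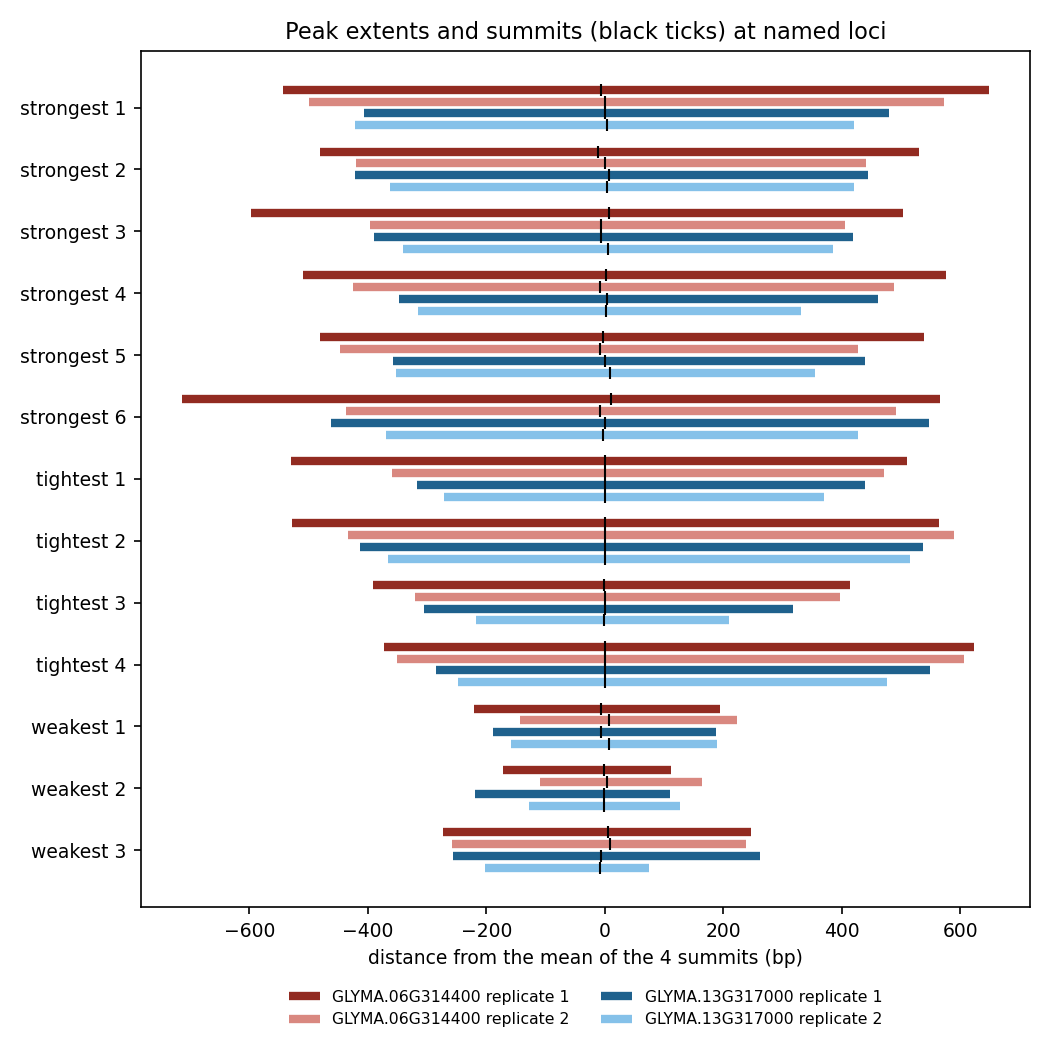
Peak extents (coloured bars) and summits (black ticks) of the 6 strongest, 4 tightest and 3 weakest members, against the distance in bp from the mean of the 4 summits, with GLYMA.06G314400 replicates 1 and 2 drawn above GLYMA.13G317000 replicates 1 and 2. The extents differ between lists while the summits stand within at most 19 bp, and the weakest loci are the narrowest.

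Peaks at the members ranked high in their lists. Median fold enrichment was 15.2 (quartiles 9.92 and 22.5) in replicate 1 and 16.8 (10.6 and 26.2) in replicate 2 of GLYMA.06G314400. With GLYMA.13G317000 it was 11.8 (7.94 and 17.4) and 8.37 (5.57 and 12.95). The members' median percentiles were 83.6 and 82.0 in the GLYMA.06G314400 lists, and 82.4 and 75.3 in the GLYMA.13G317000 lists. At displaced loci the median percentiles were 68.1 and 63.0 in the GLYMA.06G314400 lists, against 66.5 and 50.7 in the GLYMA.13G317000 lists. Members were higher than displaced loci in 4 of 4 lists. The ranges overlapped widely, since members had fold enrichments as low as 2.77 and 3.00 in the lists of GLYMA.06G314400 and as low as 2.67 and 2.05 in those of GLYMA.13G317000.

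Taking the lists together, 2285 members (46.6%) were in the top 25% of fold enrichment in all 4 lists, against 24.8% of all loci with exactly 1 peak in each list. The exact 95% binomial interval of the members' share was 45.2% to 48.0%, for counting error only. In the top 5% of all 4 lists stood 450 members (9.18%), against 3.93% of the loci with exactly 1 peak in each list. In the lower 50% of all 4 lists stood 137 members (2.80%), against 11.4%. Because summit position and fold enrichment come from the same piles of fragments, these shares describe the members and are not independent of how they were chosen. The lowest of the 4 percentiles had a median of 72.5 at members and of 45.7 at displaced loci. Its median was higher at members on 20 of 20 chromosomes.

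**Figure D3:**
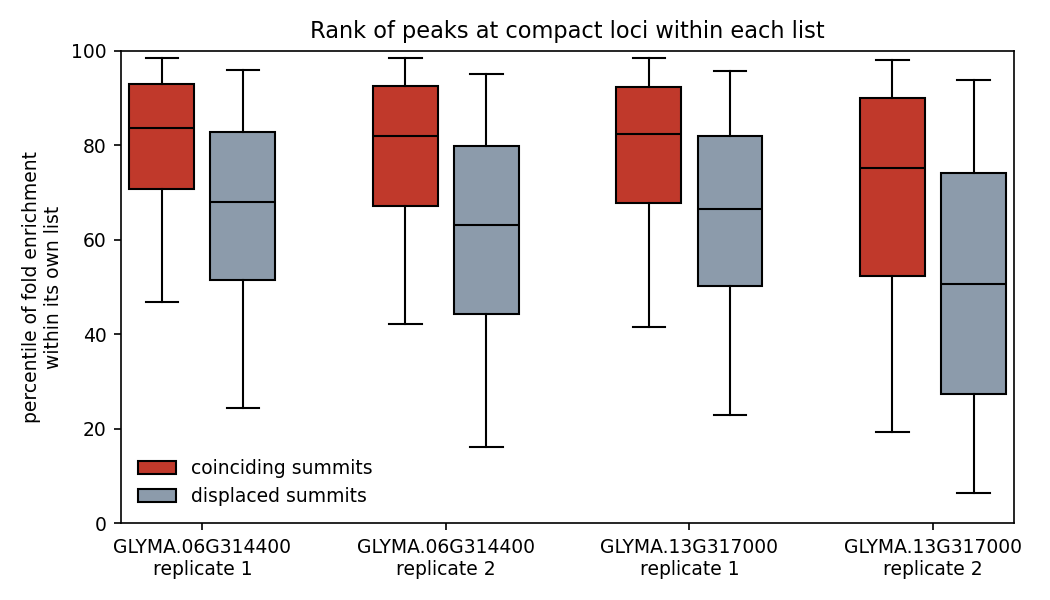
Percentile of fold enrichment within its own list (vertical axis) for peaks at the 4901 loci with coinciding summits (red) and the 26252 with displaced summits (grey), for each list. Boxes give quartiles and median, and whiskers the 5th and 95th percentiles; the red median, between 75.3 and 83.6, is above the grey one in each list.

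The share of compact loci with coinciding summits increased with strength at every step. With compact loci ordered by their lowest percentile and cut into 10 groups of about equal size, 126 of 3156 loci (3.99%, exact 95% binomial interval 3.34% to 4.74%) coincided in the weakest group. It was 401 of 3108 (12.9%, 11.7% to 14.1%) in the fifth group and 689 of 3107 (22.2%, 20.7% to 23.7%) in the eighth. In the strongest group 1117 of 3116 loci (35.8%, 34.2% to 37.6%) had coinciding summits. The median span was 73 bp in the weakest group and 25 bp in the strongest, where most loci thus still had displaced summits.

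**Figure D4:**
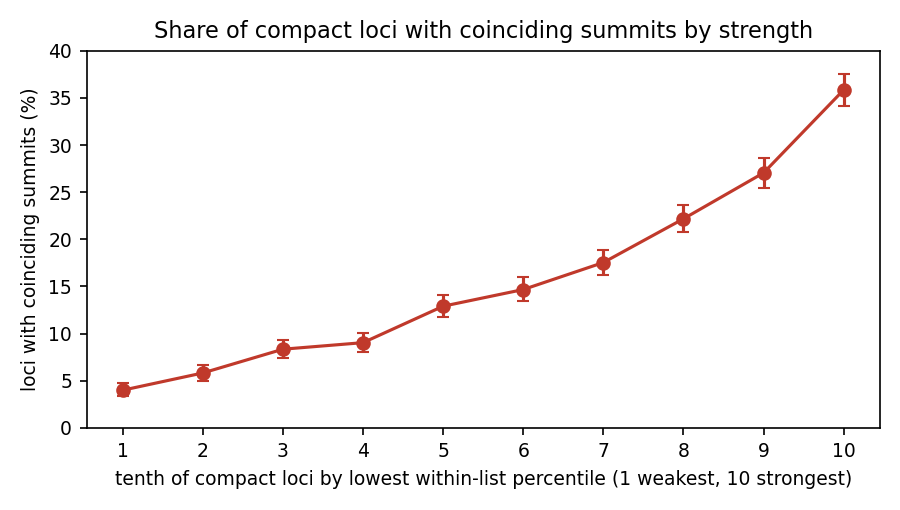
Share of compact loci whose 4 summits lay within 20 bp (vertical axis, in percent) in 10 groups ordered by the lowest within-list percentile (horizontal axis, 1 weakest to 10 strongest). Bars are exact 95% binomial intervals; the share is 3.99% in group 1 and 35.8% in group 10.

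Members were wider than displaced loci taken as a whole, and narrower among loci of like strength. Merged width covers all peaks of a locus, so peaks shifted against each other widen it. The rule keeps summits close at members, so it favours narrower members and the widths below are not independent of it. How much of the narrower width comes from this was not tested. Members had a median merged width of 754 bp (quartiles 599 and 898 bp), and displaced loci one of 651 bp (530 and 810 bp). In 5 groups of compact loci by width, the share with coinciding summits was 9.44% in the narrowest and 22.7% in the widest. When the loci were first cut into 5 groups by their lowest percentile, members were narrower than displaced loci in each. Median widths were 509 bp at members and 526 bp at displaced loci in the weakest group, 614.5 and 631 bp in the middle one, and 889 and 900 bp in the strongest. In the second strongest group, 34 of 130 of the narrowest loci (26.2%) and 217 of 1347 of the widest (16.1%) had coinciding summits. The contrast was smaller in the weaker groups. These shares were 5.41% and 4.35% in the weakest group, 10.4% and 6.04% in the second, and 17.0% and 12.1% in the middle one. In the strongest group the share ran from 27.7% (18 of 65 loci, in the second narrowest width group) to 33.6% without such an order.

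The rank of a locus was about as alike across lists at members as at displaced loci of the same strength, except among weak loci. To set lists of unequal length side by side, the loci with exactly 1 peak in each list were ranked among themselves in every list. The median range of the 4 percentile ranks was 14.6 points at members and 19.5 points at displaced loci. In the strongest of the 5 groups it was 6.72 points at members and 7.54 at displaced loci, and in the middle one 23.8 at members and 24.1 at displaced loci. In the weakest it was 28.4 points at members and 22.3 at displaced loci. Since the groups were cut by the lowest of the 4 percentiles, these ranges are not independent of the grouping. Across members, the fold enrichments of both GLYMA.06G314400 lists had a Spearman rho of 0.917, and those of GLYMA.13G317000 one of 0.897. Between the proteins rho was 0.916 in replicate 1 and 0.917 in replicate 2, and 0.846 and 0.871 across replicate numbers. At displaced loci, rho was 0.903 within GLYMA.06G314400, 0.819 within GLYMA.13G317000, and 0.755 to 0.870 between the proteins. It was thus lower there for every pair of lists, in a comparison not matched for strength. The rho values are over 4901 members and 26252 displaced loci, which are not independent. Whether lists with the same number were called against the same input is not stated.

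Some members ranked higher with one protein in both of its replicates. Both GLYMA.06G314400 ranks lay above both GLYMA.13G317000 ranks at 1191 members (24.3%), against 21.3% of the loci with exactly 1 peak in each list. The reverse was found at 802 members (16.4%), against 20.7%. These counts depend on the scale. With percentiles over whole lists, whose lengths differ, both GLYMA.06G314400 values lay above both of GLYMA.13G317000 at 1607 of the 4871 members on placed chromosomes, and the reverse held at 401. The share over all loci was not taken on this scale, so these counts cannot be called particular to the members. Displaced loci, too, had their lowest median percentile in GLYMA.13G317000 replicate 2, with 50.7. On the equal ranks, the excess towards GLYMA.06G314400 was largest at weak members and smaller at each step of strength. The groups were cut by the lowest whole-list percentile, and members had their lowest median percentile in GLYMA.13G317000 replicate 2. A weak group can therefore favour loci with a low GLYMA.13G317000 value, so this order is not independent of the grouping. In the weakest of the 5 groups by lowest percentile, 37.4% of members ranked higher with GLYMA.06G314400 and 7.87% with GLYMA.13G317000, while displaced loci gave 25.1% and 17.7%. In the second group the shares were 36.0% and 12.9% at members, and 22.3% and 21.7% at displaced loci. In the middle group they were 28.7% and 16.9% at members, and 19.9% and 24.4% at displaced loci. In the fourth they were 22.2% and 18.9% at members, and 19.3% and 23.9% at displaced loci. In the strongest group these shares were 18.4% and 16.8% at members, and 15.4% and 20.6% at displaced loci. Such ranks are no measure of binding strength, and these shares were not tested.

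The members with the largest differences in whole-list percentile between the proteins, in both replicates and on placed chromosomes, included weak and moderate peaks. At chr14:2467864-2468318, GLYMA.06G314400 gave fold enrichments of 5.71 and 8.89, at percentiles 47.9 and 59.97 of its lists, and GLYMA.13G317000 gave 2.71 and 3.05, at percentiles 2.26 and 4.67. On the equal ranks this difference was smaller, with 18.4 and 40.7 for GLYMA.06G314400, against 0.19 and 3.17 for GLYMA.13G317000. At chr7:20451393-20451877, the values were 7.06 and 12.4 for GLYMA.06G314400, at percentiles 57.8 and 72.9, against 3.33 and 3.80 for GLYMA.13G317000, at percentiles 12.2 and 20.7. The order was the other way at chr3:35714403-35714938, where GLYMA.06G314400 gave 3.06 and 4.85, at percentiles 8.27 and 26.1, and GLYMA.13G317000 gave 6.46 and 14.0, at percentiles 58.2 and 91.8. At chr13:37303758-37304223, GLYMA.06G314400 gave 3.38 and 3.88, and GLYMA.13G317000 gave 7.00 and 5.49. The summits of these 4 loci spanned 14 to 19 bp, near the limit of the rule.

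Along the genome the members followed the other compact loci. They were spread over all 20 chromosomes, with 4871 members there and 30 on 18 unplaced scaffolds. Chromosome 13 had the most, with 369 members or 8.05 per Mb, followed in density by chromosome 11 with 7.10 per Mb. Chromosome 1 had the lowest density with 3.50 per Mb, and chromosome 16 the fewest members, 190. The mean density was 5.20 ± 1.11 members per Mb (SD over 20 chromosomes). As a share of compact loci, members varied little, with 15.7% ± 1.02 (SD over 20 chromosomes), from 13.7% on chromosome 1 to 18.2% on chromosome 16. Chromosome 1 was also where the members were weakest, with a median lowest percentile of 62.1, against 67.3 to 76.6 on the other chromosomes. Its displaced loci were not the weakest, with 47.2 in a range of 42.1 to 48.6 over the 20 chromosomes.

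Members lay mostly towards the chromosome ends, as displaced loci did. The outer 20% at each end of a chromosome, 40% of its length as far as the highest peak end shows it, held 3304 of the 4871 placed members (67.8%), against 68.0% of all placed loci with exactly 1 peak in each list. The mean over chromosomes was 69.1% ± 11.4 for members and 69.2% ± 10.6 for displaced loci (SD over 20 chromosomes). The difference, members minus displaced loci, averaged −0.13 percentage points with an SD of 3.45, and was positive on 9 of 20 chromosomes. The share of members was highest on chromosome 4, with 88.7%, and lowest on chromosome 13, with 32.5%. Within 1 Mb of a chromosome end lay 367 placed members (7.53%), against 7.85% of placed displaced loci, and in the central 20% of the length 309 (6.34%), against 6.29%. Of the central members, 98 were on chromosome 13.

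**Figure D5:**
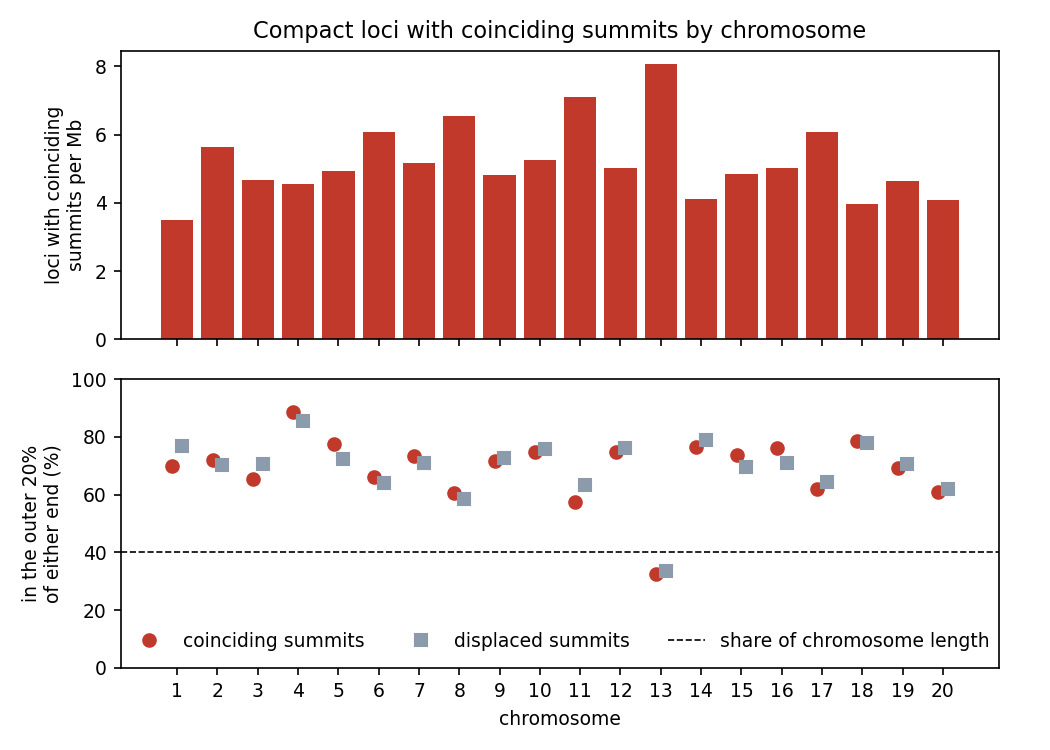
Members per Mb on each of the 20 chromosomes (upper panel, bars), and the percent of members (red circles) and of displaced loci (grey squares) in the outer 20% of either chromosome end (lower panel), with the 40% of length dashed. Members minus displaced loci ranges from −6.85 to 5.24 percentage points over the chromosomes, and chromosome 13 lies lowest for both.

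Members lay about as far from other loci with peaks in all 4 lists as displaced loci did. Neighbouring members were a median of 77631 bp apart (quartiles 30683 and 177198 bp), and 62 of 4851 neighbouring pairs (1.28%) lay within 2000 bp. Their nearest locus with a peak in all 4 lists, whether a member or not, was a median of 5042 bp away, against 4867 bp for displaced loci. Such a locus lay within 2000 bp of 1016 members (20.9%) and of 5784 displaced loci (22.2%). It was over 50000 bp away for 171 members (3.51%) and for 917 displaced loci (3.51%). Of 9497 windows of 100000 bp, 6292 (66.3%) held no member, 2032 held 1, and 4 held the highest number, 6. The fullest windows were chr2:1200001-1300000, where 6 of 16 compact loci were members, chr3:39200001-39300000 with 6 of 17, chr10:4000001-4100000 with 6 of 9, and chr19:42000001-42100000 with 6 of 12.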

How the data were processed

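The authors deposited 1 peak list for each of the 4 precipitated samples, so replicates were not pooled. The submitters' processing notes list the aligner Bowtie 0.12.7 and the peak caller MACS2. The caller's version and controls, the genome build, and the handling of duplicate or multiply mapped reads, all of which decide where a peak can be called, are not stated there. Each deposited peak has a fold enrichment, a −log10 p, a −log10 q, and a score of about 10 times −log10 q, which was not used. Start, end and summit offset are in bp, and positions are printed counting from 1.

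Loci were built and described in Python 3.11.15 with pandas 2.3.3, numpy 2.4.6 and scipy 1.17.1. The merged loci were identical to those of bedtools 2.31.1 at 70952 of 70952 loci, and 4000 of 4000 simulated loci were returned in the class they were made with. Percentiles of fold enrichment were taken over all peaks of a list. Chromosome length was taken as the highest peak end. The named loci are the 6 strongest members by lowest percentile, the 4 strongest of the tightest, the 3 weakest, the 2 with the largest rank difference in each direction, and the first 2 of the fullest windows; the other 2 windows with as many members were added after their values were seen. The members, groups and rules were chosen with earlier results of these data known. Loci are not replicates, so 1 test was made, of peak width over samples. Alternatives changed the span, the width, the merging distance, a q limit, the ranking, the position measure and the lists used.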

Additional observations from a re-analysis of the deposited data

How the results depend on the processing

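The number of members depended on the summit limit. It was 1005 at a span of 10 bp or less and 18974 at 50 bp or less, and 8472 to 11247 when 1 list was left out, where the need for a peak in that list, the merged width and the number of summits all changed together. It was highest without GLYMA.13G317000 replicate 2. With a replicate block, in which the proteins' summits had to meet the limit only inside each number, there were 9204 loci; the labels do not say what a shared number means. The width limit, merging within 100 bp, a −log10 q of 5 or more, and placed chromosomes alone gave 4223 to 4939 members.

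The share of members in the top 25% of all lists was 52.9% at a span of 10 bp, 34.1% at 50 bp, 40.9% at widths under 1000 bp, 39.7% with the replicate block, 48.2% ranked by −log10 p, 35.4% with percentiles over loci with 1 peak in each list, and 39.9% to 41.9% with 1 list left out. The median lowest percentile was 77.0, 62.2, 68.8 and 66.8 under the first 4 of these settings, 62.1 with percentiles over loci with 1 peak in each list, and 67.2 to 68.6 with 1 list left out. For the ranking by −log10 p, the percentiles over loci with 1 peak in each list and the left-out lists, no top 25% share over all loci was taken. The 24.8% given above is therefore no comparison for them. The share of members near chromosome ends was 38.7% when the outer 10% at each end, a smaller part of the length, was counted. The share with all summits on the same side of the peak middle was 34.3% at a span of 50 bp, 35.0% at widths under 1000 bp, and 46.1% to 49.6% with 1 list left out, where fewer lists had to match; this part of the alternatives was added after seeing the data. The width difference between the proteins was 99.5 to 252.5 bp with 1 list left out, and 176 bp with the replicate block. Of 51 values for the 17 named loci under other rankings, 48 moved by less than the spread over the lists; the first of the weakest loci had a lowest percentile of 3.76, and of 25.01 when ranked by −log10 p. Read depth is unknown, so the precision of single summits is not known.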
